A study of Homo sapiens with 9 samples.

Results

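The levels of 9 human B cell genes, MS4A1, CD79A, CD79B, BLK, BANK1, PAX5, TCL1A, FCRLA and CD22, were followed across all 9 RNA libraries of the experiment. The genes were taken from a list of B cell symbols, and all 9 were found by Ensembl identifier among the 57338 genes of the deposited table. The list was drawn up with the levels in these libraries in view, so the values in the libraries labelled hPRM1 and their difference from the other libraries are a description without a test. HEK293T cells, a human embryonic kidney line, were transfected with an EGFP plasmid (empty vector), or with plasmids for EGFP fused to human PRM1 (hPRM1) or human PRM2 (hPRM2). Protamines are small basic proteins that pack sperm DNA. Live cells with high EGFP signal were sorted 3 days later, and the 3′ ends of polyadenylated RNA were sequenced, with 3 libraries per condition. Transfection was transient in a single cell line, all 3 conditions carried EGFP, and neither the labels nor the methods used here say whether replicates came from separate cultures. P-values therefore measure the spread between libraries, which may be technical.

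B cells are the lymphocytes that make antibodies. Their antigen receptor is a membrane immunoglobulin held in a complex with the CD79A and CD79B chains, which carry the signal to SRC family kinases such as BLK and LYN, then to SYK and to adaptors such as BLNK and BANK1. CD22 is a sialic acid binding coreceptor that recruits the phosphatase PTPN6 and dampens this signal, and PAX5 is the transcription factor that holds cells in the B lineage. Kidney-derived cells are not known for these genes, which serve as blood B cell markers.

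The libraries labelled hPRM1 stood apart from the other 6 and went against their label. PRM1 was listed at 0 RPKM (reads per kilobase of gene, scaled to 1000000 reads of the library) in all 9 libraries, those labelled hPRM1 included. PRM2 was listed at 0 RPKM in the empty vector and hPRM1 libraries and at 71220, 60050 and 36130 RPKM in the hPRM2 libraries. Of 11 HEK293T markers, 8 were at 0 RPKM in all 3 libraries labelled hPRM1, and their summed level was 0.482 to 1.44 RPKM there, against 140 to 217 RPKM in the empty vector and 174 to 322 RPKM in hPRM2. The 2 with the highest means over all 9 libraries, the kidney transcription factor gene LHX1 (through its level in hPRM2) and the neurofilament gene NEFM, were at 0 in every library labelled hPRM1. Of the 8 markers at 0 there, DLK1 was at 0 in all 9 libraries, and NEFL was at 0, 0.135 and 1.125 RPKM in the empty vector. PEG10 was at 1.14, 0.0746 and 0 RPKM in hPRM1 and at 0.277, 0 and 0 RPKM in the empty vector, so its ranges overlapped. The library numbers of the hPRM1 libraries in the labels also fell in another run of numbers than those of the other conditions, so that batch and condition cannot be told apart. Estimated reads on genes were 7930000 to 10790000 per empty vector library, 4210000 to 5860000 per hPRM1 library and 1270000 to 2650000 per hPRM2 library. A value of 0 allows 3 reads, which, scaled to 1000000 reads, is 0.278 to 0.378 reads in the empty vector, 0.512 to 0.713 in hPRM1 and 1.13 to 2.36 in hPRM2, for counting error only. BCL10, a widely expressed gene, was listed at 0 RPKM in all 9 libraries, so a value of 0 is a listed value and is not read as absence of a transcript.

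Short stretches of promoter sequence were examined because PU.1, the product of SPI1, is active in B cells and myeloid cells and SPI1 itself was measured in the same libraries. RefSeq promoter windows of 300 bases on GRCh38.p14 were at hand for 6 of the 9 genes, and MS4A1, CD79B and BLK had none. The PU.1 core GAGGAAGT, read on both strands, was in 2.59% of all 35116 windows and in the windows of 2 of the 6 genes, FCRLA and BANK1. These 2 matches are shown with the motif, here on the opposite strand, in capitals.
FCRLA, chr1:161707174-161707203, plus strand: cagttaaatttACTTCCTCttttctaatct
BANK1, chr4:101790650-101790679, plus strand: tgagcagtttcACTTCCTCtgggcgcccag
The first motif base lay at position -44 from the start site in FCRLA and at -69 in BANK1. The octamer ATGCAAAT of the POU2F factors (1.77% of all windows) and the EBF1 palindrome (TCCC and GGGA, 2 bases apart, 1.21%) had a match in 0 of the 6. Neither PU.1 match therefore overlapped another of the motifs, and a match is a run of letters, not a measured binding site.

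All 9 genes were above 0 RPKM in each of the 3 libraries labelled hPRM1, and 8 of the 9 were at 0 RPKM in all 3 empty vector libraries. In hPRM2, 8 of the 9 were likewise at 0 RPKM in all 3 libraries. For all 9 genes the lowest library labelled hPRM1 was above the highest of the other 6. The same held for 8.90% of the 23552 genes above 0 in any library, and 4.11% were above 0 in all 3 hPRM1 libraries and at 0 in the other 6. Since the genes were chosen for this pattern, nothing is read from that count. The sum of the 9 genes was 135.2, 120.8 and 105.8 RPKM in hPRM1 replicates 1 to 3 (120.6 ± 14.7, SD, n = 3), and the mean was 326 RPKM after median-of-ratios rescaling and 298 RPKM after quantile normalization. In the empty vector it was 0.784, 0 and 0.0111 RPKM, and in hPRM2 it was 0, 0 and 1.95 RPKM. In bulk RNA, fewer cells of a type and less RNA per cell cannot be told apart.

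**Figure D1:**
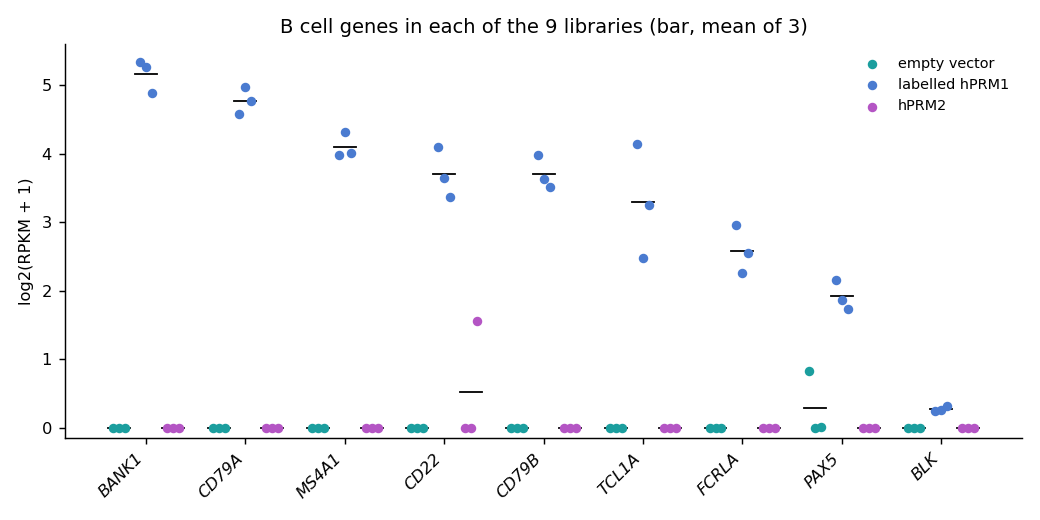
Level of each B cell gene in each library, on the vertical axis as log2(RPKM + 1), with genes on the horizontal axis in order of mean level in the libraries labelled hPRM1. Points are single libraries coloured by condition and bars are means of 3 libraries. All 9 genes were above 0 in the 3 hPRM1 libraries, and outside them values above 0 appear for PAX5 in the empty vector and for CD22 in 1 hPRM2 library.

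The signalling chains of the antigen receptor came first. CD79A (ENSG00000105369, chromosome 19, 41877120 to 41881372, plus strand, GRCh38) was at 23.0, 30.4 and 26.2 RPKM in the libraries labelled hPRM1 and at 0 in the other 6. CD79B (ENSG00000007312, chromosome 17, 63928740 to 63932354, minus strand) was at 14.8, 11.4 and 10.5 RPKM in hPRM1 and at 0 elsewhere. CD79A was the more abundant chain per length in every library labelled hPRM1, and the 2 chains did not peak in the same library. The ratio of CD79A to CD79B was 1.56, 2.68 and 2.5, with the lowest ratio in replicate 1, where CD79B was highest and CD79A lowest.

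The kinase BLK and the adaptor BANK1 stood at opposite ends of the range. BANK1 (ENSG00000153064, chromosome 4, 101411286 to 102074812, plus strand), a scaffold protein with ankyrin repeats, was at 39.4, 37.4 and 28.6 RPKM in hPRM1 and at 0 in the other 6 libraries. It was the highest of the 9 genes in every hPRM1 library and made up 29.1%, 31.0% and 27% of their sum. BLK (ENSG00000136573, chromosome 8), an SRC family kinase, was at 0.186, 0.202 and 0.244 RPKM in hPRM1 and at 0 elsewhere. With the longest annotated transcript these BLK values correspond to 2.6, 2.0 and 3.0 reads, so its presence rests on very few reads in each library and no fold was computed. At its hPRM1 mean BLK would give 2.95 to 5.35 reads in an empty vector library, depending on the transcript. That is near the 3 reads that a value of 0 allows.

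CD22 (ENSG00000012124, chromosome 19, 35319261 to 35347355, plus strand), the inhibitory coreceptor, was at 16.1, 11.5 and 9.38 RPKM in hPRM1. It was the only one of the 9 genes above 0 in hPRM2, at 0, 0 and 1.95 RPKM, and it was at 0 in the empty vector. The single hPRM2 value corresponds to 5.8 to 9.5 reads, depending on the transcript, and was below every library labelled hPRM1. MS4A1 (ENSG00000156738, chromosome 11, 60455752 to 60470760, plus strand) encodes CD20, the surface protein targeted by therapeutic antibodies. It was at 14.8, 19.0 and 15.2 RPKM in hPRM1 and at 0 in the other 6. The 3 hPRM1 libraries were close to each other for this gene, with a standard deviation of 0.19 on the log2(RPKM + 1) scale, and replicate 2 was highest.

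PAX5 (ENSG00000196092, chromosome 9, 36833275 to 37034185, minus strand) was at 3.45, 2.64 and 2.33 RPKM in the libraries labelled hPRM1. It was the only one of the 9 genes above 0 in the empty vector, at 0.784, 0 and 0.0111 RPKM, and it was at 0 in hPRM2. Replicate 1 of the empty vector was below the lowest hPRM1 library and far above replicate 3. The 0.784 RPKM corresponds to 52.0 reads with the longest transcript of 8615 bases and to 3.6 reads with the shortest of 830 bases, so the number of reads behind it is uncertain.

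TCL1A (ENSG00000100721, chromosome 14, 95709967 to 95714196, minus strand) encodes a coactivator of the AKT kinase that is high in naive B cells and is lost as they mature. It was at 16.7, 4.58 and 8.55 RPKM in hPRM1 and at 0 in the other 6 libraries. It varied most of the 9 genes: the highest library was 3.66-fold above the lowest. FCRLA (ENSG00000132185, chromosome 1, 161706972 to 161714352, plus strand) encodes an intracellular relative of the Fc receptors of B cells. It was at 6.75, 3.78 and 4.84 RPKM in hPRM1 and at 0 elsewhere, again with replicate 1 highest and replicate 2 lowest.

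The order of mean levels in the libraries labelled hPRM1, per length, was BANK1 (35.1 ± 5.75 RPKM, SD, n = 3), CD79A (26.5 ± 3.70), MS4A1 (16.3 ± 2.30), CD22 (12.3 ± 3.45), CD79B (12.2 ± 2.27), TCL1A (9.96 ± 6.20), FCRLA (5.12 ± 1.5), PAX5 (2.81 ± 0.574) and BLK (0.211 ± 0.0296 RPKM). The ranges of neighbours in this order were separate for CD79A and MS4A1, for FCRLA and PAX5, and for PAX5 and BLK. They overlapped for the other 5 pairs of neighbours. The kit reads 3′ ends, so the count of a gene does not grow with its length, and division by length lowers the place of genes with long transcripts.

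Among replicates, 6 of the 9 genes were highest in replicate 1 of hPRM1, 2 in replicate 2 and 1 in replicate 3. The standard deviation of log2(RPKM + 1) had a median of 0.24 over the 8 genes other than BLK. Over the 10631 genes with a mean of at least 1 RPKM in these libraries it was 0.34, with a 90th percentile of 0.98. The median of the 8 genes was thus below that of all genes, while TCL1A, at 0.84, was above it. The ratio of TCL1A to MS4A1 was 1.13, 0.241 and 0.564, a 4.68-fold spread, while that of BANK1 to MS4A1 was 2.66, 1.97 and 1.88. TCL1A made up 12.4%, 3.79% and 8.09% of the sum of the 9 genes, and the share of CD79A was 17.0%, 25.2% and 24.8%, lowest where TCL1A was highest. In replicate 2, where TCL1A was lowest, its value corresponds to 9.0 to 22.1 reads.

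**Figure D2:**
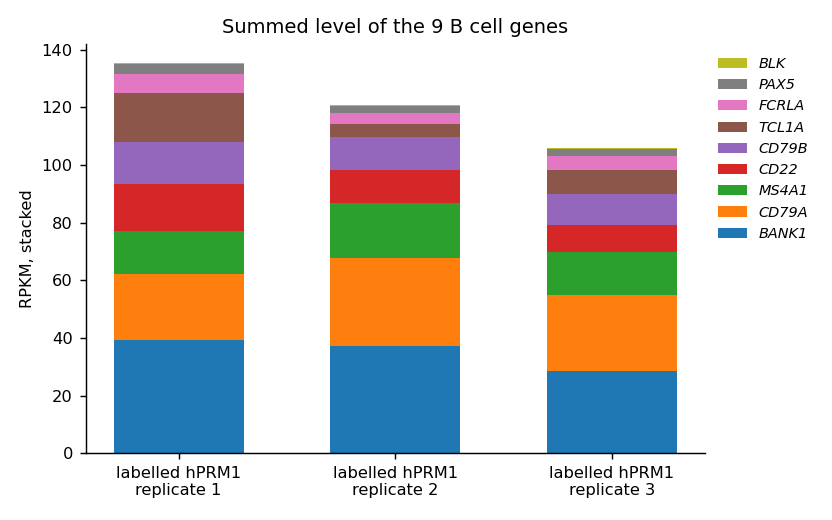
Summed level of the B cell genes in each library labelled hPRM1, with RPKM on the vertical axis and a coloured segment for each gene. BANK1 was the largest segment in all 3 libraries (27% to 31.0%), TCL1A varied from 3.79% to 12.4%, and BLK is too thin to see at 0.138% to 0.230%.

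Markers of other blood cells were high in the same libraries. Summed red cell markers were at 2060240 to 2266400 RPKM in hPRM1 against 3.09 to 18.2 in the empty vector, led by the globin genes HBA2 and HBB (HBA2 shares most of its sequence with HBA1, so their split is uncertain). Neutrophil markers summed to 3643 to 4400 RPKM in hPRM1, led by S100A9 and S100A8, and FCGR3B was at 0 in every library. Monocyte markers, led by LYZ and VCAN, summed to 681 to 1088 RPKM, and natural killer cell markers, led by NKG7 and GNLY, to 451 to 735 RPKM. T cell markers, led by CD247 and CD3G, summed to 358 to 571 RPKM and platelet markers, led by PF4 and ITGA2B, to 320 to 564 RPKM. The 9 B cell genes, at 105.8 to 135.2 RPKM, were thus at a lower summed level than each of these lists. Plasmacytoid dendritic cell markers, of which TCF4 and GZMB had the highest means over all 9 libraries, summed to 76.2 to 106 RPKM in hPRM1, and TCF4 alone was at 12.7 to 18.7 RPKM in the empty vector. In limma's test all 10 tested T cell markers, 7 of 7 natural killer cell markers, 6 of 7 monocyte markers, 7 of 7 neutrophil markers, 6 of 6 red cell markers, 4 of 4 platelet markers and 4 of 6 plasmacytoid dendritic cell markers (1 was lower) were higher in hPRM1 than in the empty vector. All 8 tested HEK293T markers were lower. Over all 13588 genes tested, 12.9% were higher and 62.5% lower. Of the blood cell markers tested, 7 T cell, 6 natural killer cell, 4 monocyte, 4 neutrophil, 3 red cell, 2 platelet and 3 plasmacytoid dendritic cell markers had no empty vector library above 0 and passed the filter through hPRM1 alone, so their calls support nothing further. The same holds for further markers above 0 in the empty vector but at 1 RPKM or more in fewer than 3 of its libraries, such as S100A9, S100A8 and PF4. The part of these other cells in the values of genes shared between blood cell types was not tested.

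The B cell genes did not keep a fixed proportion to the T cell markers across the 3 libraries. Their sum divided by that of the T cell markers was 0.378, 0.212 and 0.220, and MS4A1 divided by CD3E, a chain of the T cell receptor complex, was 0.534, 0.393 and 0.332. Replicate 1 had the highest value of both ratios. Against the neutrophil markers the ratio was 0.0336, 0.0275 and 0.0290, and against the natural killer cell markers it was 0.184, 0.192 and 0.235. Replicate 1 was thus highest against T cell and neutrophil markers and lowest against natural killer cell markers.

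**Figure D3:**
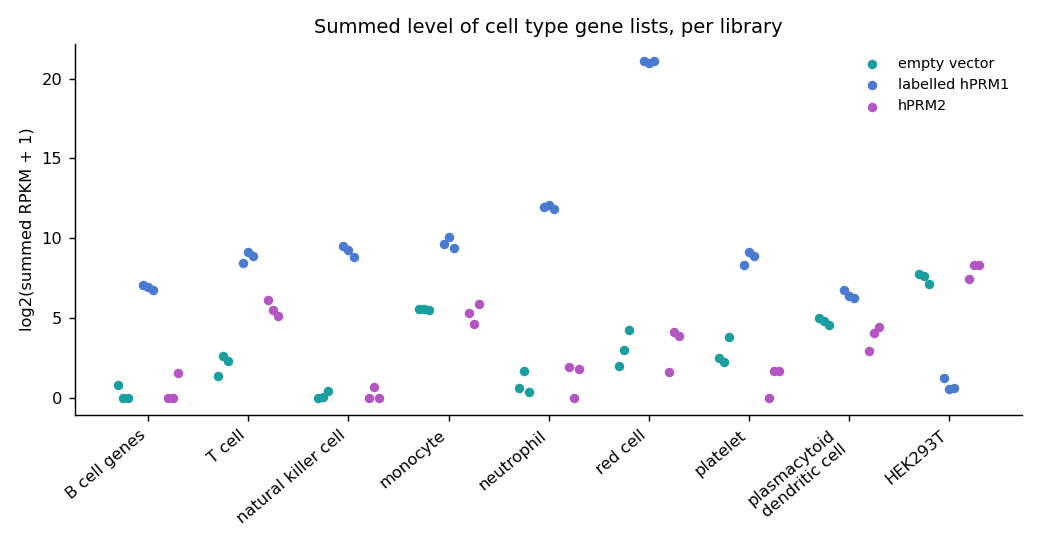
Summed level of each cell type gene list in each library, on the vertical axis as log2(summed RPKM + 1), with lists on the horizontal axis and points coloured by condition. The 3 libraries labelled hPRM1 lie above the other 6 for all blood cell lists, and below them for the HEK293T markers (0.482 to 1.44 RPKM).

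Further B cell genes, none among the 9, were grouped by role in 7 lists of 108 genes in all, of which many also serve other blood cells. For hPRM1, as labelled, against the empty vector, limma on log2(RPKM + 1) with Benjamini-Hochberg adjustment called 12.9% of genes higher and 62.5% lower, with a median of -1.72 over all 13588 tested. Calls were made at an adjusted p of 0.05 or less with a change of 2-fold or more. Of the 108, 89 were tested, 56 were higher and 14 lower, with a median log2 difference of 1.95. Of the 89, 26 were at 0 in all empty vector libraries and passed the filter only through hPRM1, and without them the median was 0.99. Genes under 1 RPKM in every empty vector library, such as INPP5D, IKZF1 and PRDM1, also passed through hPRM1 alone and stay in that median. So do genes at 1 RPKM or more in fewer than 3 empty vector libraries, which needed hPRM1 to pass. Examples are PTPN6, CD37, CD53, POU2F2 and BCL6. The medians given below for single lists without genes at 0 keep such genes too. Calls of genes that needed hPRM1 to pass support nothing further. The split was 74 higher and 3 lower after median-of-ratios rescaling and 70 higher and 4 lower after quantile normalization, which moved the median of all genes to 0.14 and -0.41. CD5 is also one of the T cell markers, and POU2AF1 is in 2 of the lists.

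Receptor signalling genes were higher in 13 of 20 tested and lower in 2, with a median log2 difference of 1.57 (1.46 without the 2 genes at 0 in all empty vector libraries). The lipid kinase subunit gene PIK3CD was at 48.9, 66.3 and 59.0 RPKM in hPRM1 against 2.94, 3.55 and 3.17 in the empty vector (log2 difference 3.80 ± 0.20, SE, adjusted p = 9.89e-06). PRKCB, a protein kinase C gene, rose from 20.8, 24.8 and 20.1 RPKM to 52.3, 68.8 and 67.0 RPKM (log2 difference 1.47 ± 0.20, SE, adjusted p = 0.00046). SYK, a kinase that relays the receptor signal, also rose, by a log2 difference of 1.96. BTK and BLNK, which act after it, were at 2.52 to 7.60 RPKM and 2.81 to 8.16 RPKM in hPRM1 and at most 0.325 and 0 RPKM in the empty vector, so they passed the filter through hPRM1 alone. GRB2, a widely used adaptor, had a log2 difference of -0.06 and was not called, but it was called higher after median-of-ratios rescaling (2.44) and quantile normalization (2.10). CD81, a tetraspanin gene found on most cell types, was lower by log2 -2.57 and VAV2 by -2.33 as deposited, whereas neither was called after either rescaling.

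Inhibitors of the receptor were higher in 7 of 9 tested and lower in 0, with a median of 2.93 (1.69 without the 4 genes at 0 in all empty vector libraries). PTPN6, the phosphatase that CD22 recruits, was at 156, 197 and 205 RPKM in hPRM1 and at 0, 3.04 and 0 in the empty vector (log2 difference 6.86 ± 0.56, SE, adjusted p = 4.80e-05). INPP5D, a lipid phosphatase recruited by FCGR2B, was at 92.5, 86.7 and 65.9 RPKM against 0.822, 0.658 and 0 (log2 difference 5.82 ± 0.30, SE, adjusted p = 8.63e-06). Both are expressed across blood cells, and for both the lowest hPRM1 library was far above the highest empty vector library. INPP5D, under 1 RPKM in every empty vector library, passed the filter through hPRM1 alone. PTPN6, with 0, 3.04 and 0 RPKM there, also needed its hPRM1 libraries to pass, so neither call supports anything further. CSK, which holds SRC family kinases inactive, did not pass, with a log2 difference of 0.39, but it was called higher after either rescaling.

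Transcription factors were higher in 7 of 15 tested and lower in 2, with a median of 0.94 (0.35 without the 3 genes at 0 in all empty vector libraries). SPI1, the gene of PU.1, was at 37.4, 49.1 and 58.8 RPKM in hPRM1 and at 0 in the empty vector, and IKZF1 and POU2F2 had log2 differences of 4.76 and 4.80. SPI1 and IKZF1 passed the filter through hPRM1 alone. POU2F2, at 0.569, 1.20 and 0.446 RPKM in the empty vector, also needed hPRM1 to pass. EBF1, which acts with PAX5 in B cell commitment, was at 1.17, 1.02 and 0.706 RPKM in hPRM1 and at 2.61, 1.34 and 0 RPKM in the empty vector, with a log2 difference of -0.06 that did not pass. PAX5 was thus above its empty vector range in these libraries while EBF1 was inside it. TCF3, an E protein gene used in many cell types, was lower by log2 -1.68 as deposited, with the sign turned under both rescalings (0.78 and 0.02). BCL11A was lower by -2.33 but was not called after rescaling, nor without empty vector replicate 2 or 3 or hPRM1 replicate 1 or 3 (-2.24 to -1.86).

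Surface and maturation genes were higher in 22 of 29 tested and lower in 3, with a median of 2.09, which was also the median without the 14 genes at 0 in all empty vector libraries. CD74, the invariant chain of antigen presentation, was the most abundant, at 897, 977 and 798 RPKM in hPRM1 and at 0 in the other 6 libraries. The tetraspanin genes CD37 and CD53, found across white blood cells, had log2 differences of 6.22 and 6.06. In the empty vector CD37 was at 28.2, 0.230 and 0 RPKM and CD53 at 2.65, 0 and 0 RPKM. Both thus needed hPRM1 to pass the filter, and their calls support nothing further. VPREB3, named for a role in precursor B cells, was at 57.5, 42.2 and 57.7 RPKM in hPRM1. TNFRSF13C, the receptor for the survival factor BAFF, was at 6.65, 5.40 and 5.54 RPKM there, and FCER2, a surface protein of naive B cells, at 7.48, 6.36 and 2.02 RPKM. FCER2 was at 0 in the other 6 libraries and TNFRSF13C was at most 2.13 RPKM there. CD27, a memory B cell and T cell gene, was at 20.2, 38.2 and 42.8 RPKM, lowest in replicate 1, as was the T cell marker CD3E (27.7, 48.3 and 45.7 RPKM). FCER2 and TCL1A were highest in replicate 1, but FCER2 was lowest in replicate 3 and TCL1A in replicate 2. CD83, lower by log2 -1.68, was called neither after rescaling nor when any hPRM1 library was left out (-1.79 to -1.61), and SWAP70 and RALGPS2, lower by -1.11 and -1.07 as deposited, had the opposite sign after both rescalings. The SWAP70 call also ended without empty vector replicate 1 or 2 or hPRM1 replicate 2 or 3 (-1.25 to -0.76), and that of RALGPS2 without empty vector replicate 2 (-0.88).

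Genes of other B lineage stages were read list by list. Of 10 precursor genes 7 did not pass the filter: RAG2, DNTT and IGLL1 were at 0 RPKM in every library labelled hPRM1, and RAG1 was at 5.88, 0 and 0 RPKM. IL7R, also a T cell gene, was at 75.2, 98.0 and 67.9 RPKM in hPRM1 and at 0 elsewhere, and SOX4 was lower by log2 -3.80. MME was higher by 1.95, but the call ended without empty vector replicate 1 or 2 or any hPRM1 library (1.33 to 2.30). Of 9 germinal centre genes, RGS13 and SERPINA9 were at 0 in all hPRM1 libraries. BCL6, which myeloid cells also express, was higher by log2 7.31 (173, 488 and 347 RPKM in hPRM1 against 0.521, 3.50 and 0.0883 in the empty vector). BCL6 needed hPRM1 to pass the filter, and it was the one germinal centre gene of 5 tested that was higher. The other 4 were lower as deposited, UNG by log2 -4.16, S1PR2 by -2.07, ELL3 by -1.39 and MYBL1 by -1.18, of which UNG alone was still called after both rescalings and MYBL1 changed sign. The MYBL1 call also ended without empty vector replicate 1 or 3 or hPRM1 replicate 1 or 3 (-1.24 to -1.0).

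Plasma cell genes were higher in 5 of 9 tested and lower in 2, with a median of 2.18 (0.32 without the 3 genes at 0 in all empty vector libraries). JCHAIN, which joins antibody units, was at 2.58, 3.20 and 5.15 RPKM in hPRM1 and at 0 in the other 6 libraries. MZB1, an endoplasmic reticulum protein of antibody-secreting cells, was at 4.82, 8.0 and 6.91 RPKM. PRDM1, a plasma cell regulator that T cells also use, was higher by log2 2.97. The 2 lower genes, XBP1 (log2 difference -3.14) and SDC1 (-2.50), act in secretory and epithelial cells as well, and SDC1 was at 0, 0.164 and 0 RPKM in hPRM1. XBP1 was not called after median-of-ratios rescaling (-0.69). FKBP11, at log2 0.99, was just short of the 2-fold change, and was called without empty vector replicate 2 (1.14) or hPRM1 replicate 1 (1.20) and after both rescalings.

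**Figure D4:**
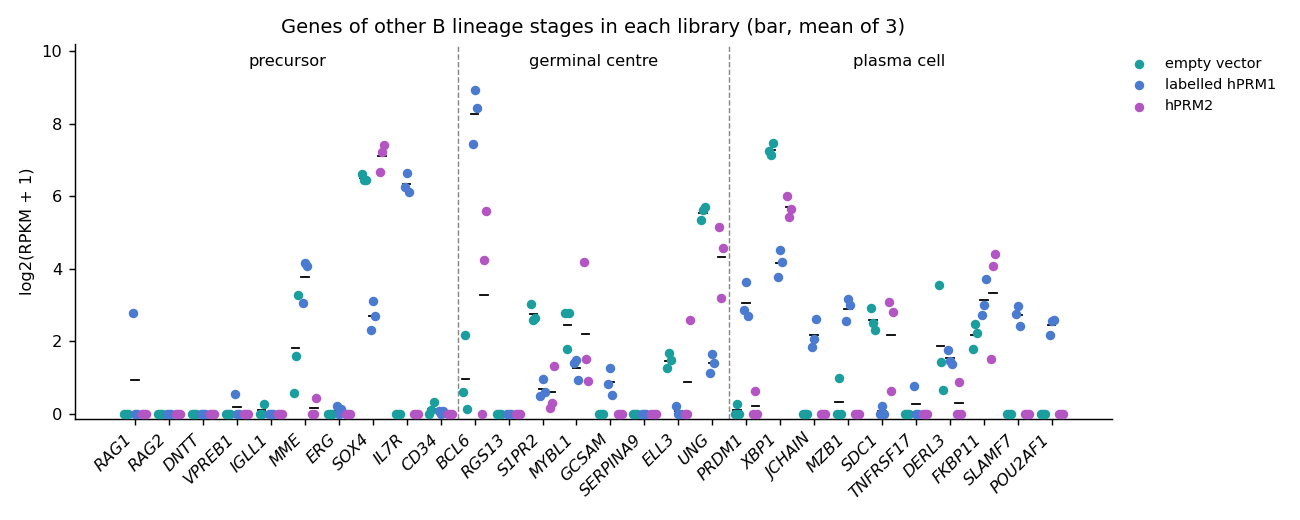
Genes from the precursor, germinal centre and plasma cell lists in each library, on the vertical axis as log2(RPKM + 1), with points coloured by condition and bars for means of 3 libraries. In the libraries labelled hPRM1, RAG2, DNTT, IGLL1, RGS13 and SERPINA9 were at 0 RPKM while JCHAIN was at 2.58 to 5.15 RPKM and MZB1 at 4.82 to 8.0 RPKM.

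In the direct comparison of hPRM1 with hPRM2, which shares the hPRM1 libraries with the comparison above, 16.0% of 11756 tested genes were higher and 37.0% lower in hPRM1 (median -0.97). Of the 108 genes in the lists, 82 were tested, 59 were higher and 5 lower, with a median of 2.19. Of the 82, 31 were at 0 in all hPRM2 libraries and passed the filter through hPRM1 alone, and without them the median was 1.83. Genes at 1 RPKM or more in fewer than 3 hPRM2 libraries, such as INPP5D, PLCG2 and PIK3CD, also needed hPRM1 to pass and stay in that median. Leaving out any one hPRM1 library lowered the count of lower genes to 3. Of the 9 B cell genes, 8 passed the filter in either comparison with hPRM1, and BLK did not. Each of the 8 would have passed on its hPRM1 libraries alone.

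The comparison of hPRM2 with the empty vector asks whether these genes changed in cells in which the labelled protamine was measured. None of the 9 genes passed the filter of 1 RPKM in 3 of the 6 libraries, in a comparison where 1.36% of 13126 genes were called higher and 1.37% lower. Without the filter, PAX5 and CD22 could be tested by limma, and 0 were called and 0 had an unadjusted p under 0.05 (adjusted p = 0.498 for PAX5 and 0.493 for CD22). Depth limits what this shows. At its mean level in hPRM1, BANK1 would give 83.2 to 146.9 reads in hPRM2 replicate 2, the shallowest library, and CD79A would give 10.7 to 34.0 reads, depending on the transcript. BLK would give at most 0.6 reads there, so a BLK level like that in hPRM1 was not detectable at this depth. CD79B and PAX5, with 2.0 and 2.1 reads on their shortest transcripts, were under the 3 reads that a value of 0 allows.

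Of the 108 genes in the other lists, 44 could be tested in hPRM2 against the empty vector and 4 were called, with a median log2 difference of -0.76, beside -0.72 over all genes. SPIB, an ETS factor gene related to SPI1, was at 27.6, 14.5 and 16.2 RPKM in hPRM2 and at 0 in the empty vector (adjusted p = 0.022, with no fold against a level listed at 0). It passed the filter through hPRM2 alone, so its call supports nothing further, and without it the median of the list genes was -0.83. VAV1, a signalling exchange factor of blood cells, was at 0 in all 3 hPRM2 libraries and at 2.35, 3.56 and 5.37 RPKM in the empty vector (adjusted p = 0.043). VPREB3 was at 0 in hPRM2 and at 16.5, 14.3 and 5.13 RPKM in the empty vector (adjusted p = 0.038). VAV1 and VPREB3 passed the filter through the empty vector alone, so their calls support nothing further either. ITPR2, a calcium channel gene of many cell types, was at 1.42, 0.915 and 1.45 RPKM against 25.1, 25 and 37.0 RPKM (log2 difference -3.72 ± 0.51, SE, adjusted p = 0.025). Leaving out any empty vector library, or hPRM2 replicate 2 or 3, ended all 4 calls, with 0 genes called. The split was 1 higher and 1 lower after either rescaling, and 3 higher and 7 lower without hPRM2 replicate 1. The T cell kinase gene LCK was also higher in hPRM2, at 70.6, 45.3 and 33.3 RPKM against 0, 2.09 and 3.03 (log2 difference 4.39 ± 0.70, SE, adjusted p = 0.033). LCK needed hPRM2 to pass the filter, so its call supports nothing further, and it was not refitted under the alternatives. Of the 11 T cell markers, 8, CD3E and CD247 among them, were at 0 in all hPRM2 libraries. CD3G was at 0.406, 0 and 0 RPKM there and BCL11B at 0, 0.430 and 1.11 RPKM.

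**Figure D5:**
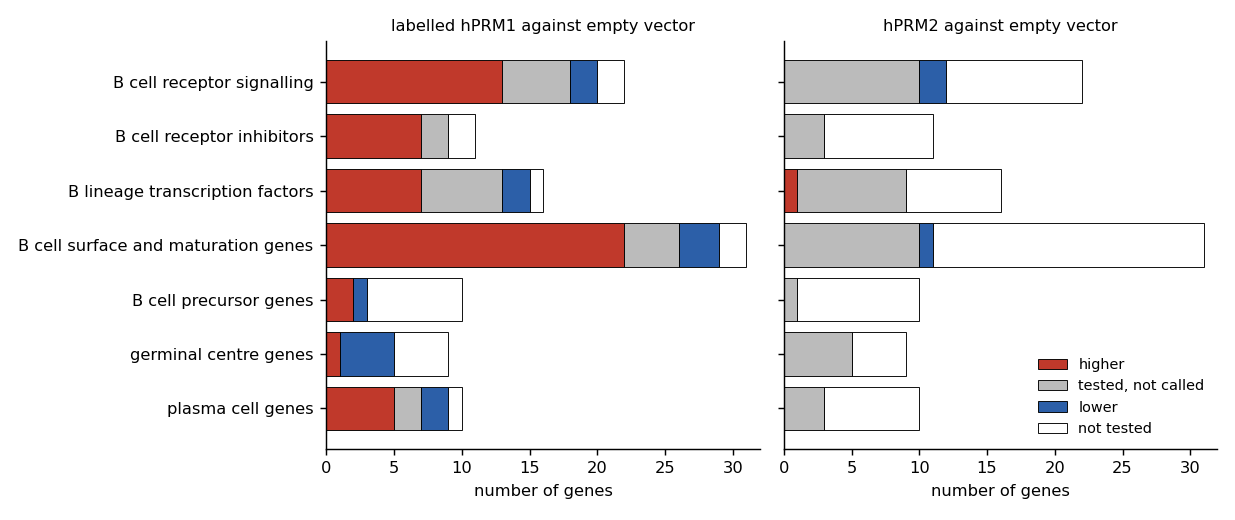
Number of genes in each B cell list (horizontal axis) that were called higher, called lower, tested but not called, or not tested, in the libraries labelled hPRM1 (left) and in hPRM2 (right) against the empty vector. With POU2AF1, drawn in 2 lists, counted once, 56 of the 89 genes tested were higher in hPRM1, and in hPRM2 1 of the 44 tested was higher and 3 were lower.

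The genes whose log2(RPKM + 1) over the 9 libraries was most like the mean of the 9 B cell genes were not B cell genes by name. They were MIR223HG (Pearson r = 0.99934), the host transcript of a myeloid microRNA, ENSG00000279410, which has no symbol in the table used, CACNA2D4 (0.99916), TSTD1 (0.99915) and CD300LF (0.99914). Each was at 0 RPKM in all 6 other libraries, and MIR223HG was at 41.9, 31.0 and 29.4 RPKM in hPRM1. Of 13447 genes compared, 361 had an r of at least 0.99. With 9 libraries in 3 conditions, and those labelled hPRM1 in another run of library numbers, such an r mostly separates hPRM1 from the rest. It is given as a description.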

How the data were processed

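RNA was sequenced with a 3′ end kit in 9 libraries, all labelled as sorted HEK293T cells. The authors processed reads with nf-core/rnaseq (FastQC, Cutadapt, STAR, Salmon, versions not given in the sources used here; hg38 per the submitters' processing notes), removed mitochondrial genes, and deposited RPKM values: the count of a gene scaled to 1000000 reads and divided by its length in kilobases. No counts were used. Groups came from the labels. Reads per library were estimated from the step of 1 read in 13863 genes with a single GENCODE 29 transcript of 600 to 20000 bases, with 250 bases subtracted. Of the identifiers, 98.6% had a symbol.

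Groups were compared on log2(RPKM + 1) with limma 3.58.1 (lmFit, eBayes with trend and robust) in R 4.3.3, over genes with RPKM of at least 1 in 3 of 6 libraries, with Benjamini-Hochberg adjustment over all genes tested. Genes at an adjusted p-value of 0.05 or less that changed 2-fold or more were called. The pseudocount understates changes of low genes. limma replaced the per-gene test of the methods because 3 libraries give a poor variance. The script was tested on simulated data. Python 3.11.15, pandas 2.3.3, numpy 2.4.6, SciPy 1.17.1 and matplotlib 3.10.9 were used for the rest. Promoter windows came from a RefSeq table (GRCh38.p14, 250 bases before to 50 after each start).

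The 9 genes, the lists and the tests were chosen with earlier results of these data known. Named by rule were the 9 genes, in each B cell list the 3 genes highest in hPRM1 and every gene lower in hPRM1 or called in hPRM2, the 2 markers of each cell type with the highest mean over the 9 libraries, and the 5 genes of most similar pattern. Further list genes (SYK, BTK, BLNK, EBF1, CD27, FCER2, TNFRSF13C, BCL10, RAG1, RAG2, DNTT, IGLL1, RGS13, SERPINA9, JCHAIN, MZB1, FCGR3B, CD3E, LCK, BCL11B, DLK1, NEFL, PEG10) were named after their values were seen. Alternatives were pseudocounts of 0.1 and 5, no filter, quantile normalization, median-of-ratios rescaling, fitting all 9 libraries together, leaving out each library and a block for the replicate number. Immunoglobulin, T cell receptor and HLA genes were not analysed here. Single values of some list genes are not reported here.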

Additional observations from a re-analysis of the deposited data

Results flagged for a closer look

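For 8 genes of the B cell lists every library labelled hPRM1 moved one way from the empty vector and every hPRM2 library the other way. The share of all genes with this pattern was not computed, so nothing is read from the count. Choosing genes in this way fixes the direction of hPRM1 against hPRM2, so limma's direct test (Benjamini-Hochberg adjusted p) restates it and adds no support. The log2 difference, hPRM1 minus hPRM2, was 5.27 for the chemokine receptor CXCR4 (adjusted p = 0.000278), 3.10 for the kinase LYN (0.00131), 5.36 for PIK3CD (0.000519), 2.94 for the phospholipase PLCG2 (0.00277), 2.51 for PRKCB (0.000879), 4.85 for VAV1 (0.000201) and 5.73 for VPREB3 (0.000126). SOX4 went the opposite way, with -4.39 (0.000296). VAV1 and VPREB3 were at 0 RPKM in all hPRM2 libraries, so their values are fitted differences on the log2(RPKM + 1) scale and no bound on a fold. In hPRM2 against the empty vector, VAV1 and VPREB3 were called, having passed the filter through the empty vector alone, and PLCG2 was not tested. CXCR4, LYN, PIK3CD, PRKCB and SOX4 were not called there (adjusted p = 0.155, 0.378, 0.145, 0.192 and 0.292). With the hPRM1 libraries, batch and condition cannot be told apart.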

How the results depend on the processing

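Over the counts of calls and the summed level of the 9 genes, 67 values under alternatives stayed close to the reported value and 29 did not. Close meant equal to or within 1.5 times a count, and within the SD between hPRM1 libraries for the sum. The 67 include the count of the 9 genes called in hPRM2, which the filter holds at 0. Over single genes 405 kept direction and call, 81 lost the call, 9 gained it and 12 changed sign. The cause of these changes was not tested. The 14 lower genes in hPRM1 against the empty vector became 7 with a pseudocount of 5, 3 with median-of-ratios rescaling and 4 with quantile normalization (10 to 13 leaving out one library). The 5 lower in hPRM1 against hPRM2 became 2 with either rescaling (3 to 6 leaving out one library). The 3 lower in hPRM2 became 1 with a pseudocount of 5, no filter or either rescaling, and 11 in the fit of all 9 libraries, with 0 to 7 leaving out one library. The 1 higher became 0 to 3, the 3 and the 7 without hPRM2 replicate 1. The summed level of the 9 genes in hPRM1 went from 120.6 to 326 RPKM with median-of-ratios rescaling and 298 with quantile normalization. After the former, the log2 difference from the empty vector changed sign for GRB2 (2.44), TCF3 (0.78), SWAP70 (1.0), RALGPS2 (1.01) and MYBL1 (0.60), and after the latter for GRB2 (2.10), TCF3 (0.023), SWAP70 (0.50), RALGPS2 (0.53) and MYBL1 (0.21). GRB2 ran from -0.15 to 0.037 leaving out one library, and was 0.012 without empty vector replicate 1.

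Replicate numbers do not pair the libraries: the correlation of deviations between same-numbered libraries ran from -0.078 to 0.080, with 0 of 9 pairs over 0.1, and not every library correlated best with its own number. With the replicate block, hPRM2 had 0 higher and 0 lower genes, hPRM1 56 higher and 14 lower against the empty vector and 57 and 4 against hPRM2. Depth limits hPRM2 most, where 3 reads are 1.13 to 2.36 reads when scaled to 1000000.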
